A study of Mus musculus with 2 samples.

Results

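Of the 42462 annotated genes in the deposited gene tables, 9 encode the enzymes that carry the Krebs cycle from citrate synthesis to succinyl-CoA and the ligase that acts on succinyl-CoA. They were chosen by name, as Cs, Idh3a, Idh3b, Idh3g, Ogdh, Dlst, Dld, Suclg1 and Sucla2, and matched by Ensembl identifier without version, and all 9 were found in both tables. The rule uses no measured value. The cells were primary erythroid progenitors (CFU-Ery) taken from adult male mice of the C57BL/6J strain, 5 to 6 weeks old; bone marrow is the source named in the labels' isolation protocol. Total RNA was sequenced in 1 group of 2 libraries, biological replicates 1 and 2, each from 1 ng of RNA with added spike-in transcripts. No other genotype, treatment or time is present. The libraries have separate biosamples under a donor record that they share, so it is not known if different animals were used, and what separates the values of replicate 1 and replicate 2 may be technical.

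Citrate synthase joins acetyl-CoA to oxaloacetate, and NAD-linked isocitrate dehydrogenase then makes 2-oxoglutarate, which the 2-oxoglutarate dehydrogenase complex turns into succinyl-CoA. Succinyl-CoA synthetase converts it to succinate and makes ATP or GTP, according to which beta subunit it holds. Erythroid cells draw on the same succinyl-CoA for haem, because 5-aminolevulinate synthase, encoded by Alas2 in this lineage, condenses it with glycine in the first step of the pathway.

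The total expected count, the authors' estimate of reads per gene, was 143491647 in replicate 1 and 110634458 in replicate 2. Genes of the mitochondrial genome took 90.3% and 88.3% of it, and nuclear protein-coding genes 3.29% and 3.70%. The 9 genes together had 4580 and 3719 counts. Levels are given as TPM, a transcript abundance in which counts are divided by length and scaled to the library. Because the deposited scale covers every entry, the mitochondrial ones included, a rescaled TPM over nuclear protein-coding genes alone was computed too, which multiplied values by 43.1 for replicate 1 and by 37.0 for replicate 2. All 10 erythroid markers examined, such as Gata1, Klf1, Epor and Slc4a1, stood at 1 TPM or more in both libraries (summed levels 3732 and 4352 TPM). Most of that sum was globin, with Hbb-bs at 2287 and 2623 TPM and Hba-a1 at 1122 and 1353 TPM. The next erythroid marker, Slc4a1, had 124 and 149 TPM. Of 10 granulocyte and monocyte markers 9 reached 1 TPM in both libraries, with no marker at 0. Their summed level was 547 TPM in replicate 1 and 742 TPM in replicate 2, and the highest, S100a9, had 173 and 250 TPM. Of 6 macrophage markers 4 reached 1 TPM in both libraries (summed levels 10.4 and 13.5 TPM), and of 5 B lymphoid markers 3 did (15.5 and 17.6 TPM). Of 5 megakaryocyte markers (2.08 and 2.66 TPM) and 5 stem and multipotent cell markers (0.90 and 0.89 TPM) 0 did, though 0 of them lacked counts in both libraries. The part of other cell types in the levels below was not tested, and in such bulk RNA fewer cells of a type and less RNA per cell cannot be told apart.

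All 9 genes were expressed, from 0.46 TPM to 3.91 TPM on the deposited scale. The lowest, Suclg1, stood above 76.9% of nuclear protein-coding genes in replicate 1 and 76.5% in replicate 2, undetected genes included. Idh3g, the highest, stood above 95.5% and 95.8%. In both libraries 6 of the 9 genes stood at 1 TPM or more, beside 12.6% of the 21461 nuclear protein-coding genes. On the rescaled TPM all 9 did, beside 44.6%. Their median level was 1.62 TPM in replicate 1 and 1.65 TPM in replicate 2, where the 10679 nuclear protein-coding genes detected in replicate 1 and in replicate 2 had medians of 0.39 and 0.43 TPM. Together they held 0.0645% ± 0.00234 (SD, n = 2) of nuclear protein-coding TPM. The highest gene stood 6.98-fold above the lowest in replicate 1 and 8.15-fold in replicate 2. Ogdh, Idh3g and Cs carried 56.2% and 56.8% of the summed level.

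**Figure D1:**
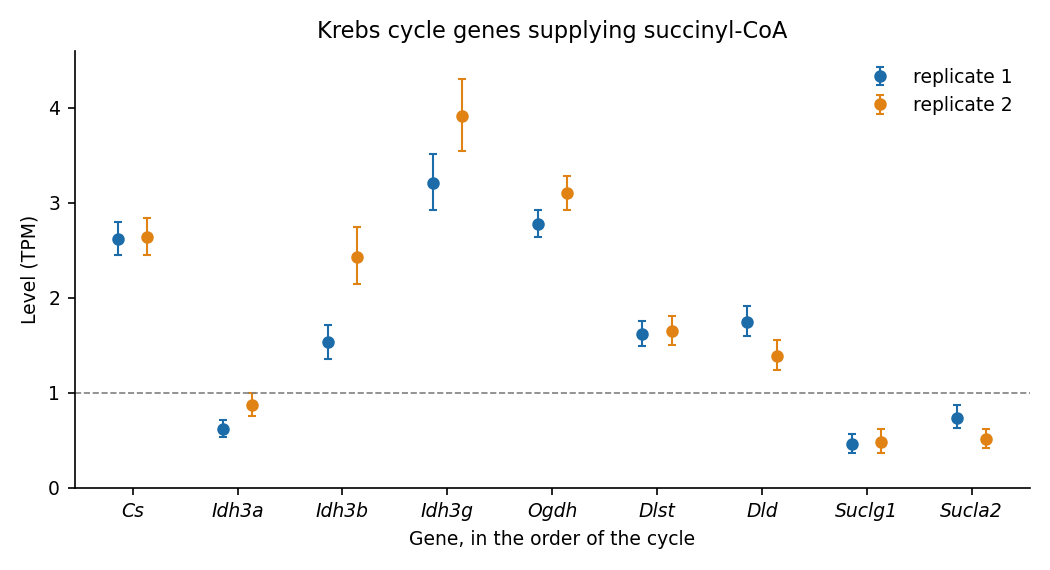
Level in TPM (y axis) of the 9 genes in the order of the cycle (x axis), with replicate 1 in blue and replicate 2 in orange. Bars are 95% counting intervals and the dashed line marks 1 TPM; Idh3a, Suclg1 and Sucla2 lie below it in both libraries.

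By mean level the order was Idh3g, Ogdh, Cs, Idh3b, Dlst, Dld, Idh3a, Sucla2 and Suclg1. The first 3 ranks and the last held in each library on whole-gene TPM. On coding transcripts alone Idh3g had 2.49 TPM in replicate 1 and 2.73 TPM in replicate 2, below Ogdh at 2.70 and 2.83 TPM. Cs, at 2.62 and 2.64 TPM, then lay above Idh3g in replicate 1 and below it in replicate 2. For 3 neighbouring pairs the values of the libraries overlapped, namely Idh3b with Dlst, Dlst with Dld, and Idh3a with Sucla2, so their order is not set by these data. Counting intervals also overlapped in replicate 1 for Idh3g with Ogdh and for Ogdh with Cs, and in replicate 2 for Cs with Idh3b and for Sucla2 with Suclg1. Dld and Idh3a, the neighbours across the widest gap, were 0.52 TPM apart between the lower Dld value and the higher Idh3a value. Intervals given below are 95% counting intervals and cover counting error only, since reads copied from 1 molecule by PCR do not count as independent.

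Cs encodes citrate synthase, the enzyme of the entry step, and lies on chromosome 10 (ENSMUSG00000005683.7, 128337734 to 128362479, GRCm38). It had 2.62 TPM in replicate 1 (interval 2.45 to 2.79, 932 counts) and 2.64 TPM in replicate 2 (2.45 to 2.84, 733 counts). These values differed by less than their counting error. Csl, a related gene that holds 11.2% of the 25-base words of the Cs transcript, had 0 counts in both libraries. The gene count of Cs was a whole number (within 0.005) in both tables, as it was for all 9 genes, so no fraction of a read was divided between these genes and others.

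NAD-linked isocitrate dehydrogenase is built of a catalytic alpha subunit and the beta and gamma subunits, and the TPM of its genes differed by more than 2-fold from the lowest to the highest in both libraries. Idh3g, the gamma subunit gene (ENSMUSG00000002010.13, chromosome X, 73778963 to 73786897), had 3.21 TPM in replicate 1 and 3.91 TPM in replicate 2. It was the highest of the 9 on whole-gene TPM, but not on coding transcripts alone. Idh3b, for the beta subunit (ENSMUSG00000027406.8, chromosome 2, 130279309 to 130284547), had 1.53 TPM in replicate 1 and 2.43 TPM in replicate 2. Idh3a, for the alpha subunit (ENSMUSG00000032279.10, chromosome 9, 54586334 to 54604661), had 0.62 and 0.87 TPM. Idh3a was thus the lowest and Idh3g the highest of the trio in both libraries, with no overlap between any of them.

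The log2 ratio of TPM of Idh3a over Idh3g was -2.37 in replicate 1 (interval -2.63 to -2.12) and -2.17 in replicate 2 (-2.42 to -1.92), a mean of -2.27 ± 0.14 (SD, n = 2). Idh3a over Idh3b gave -1.30 (-1.58 to -1.03) and -1.48 (-1.75 to -1.21). Idh3b over Idh3g gave -1.07 (-1.29 to -0.85) and -0.69 (-0.91 to -0.46). The intervals lay below 0 for all 3 ratios in both libraries. With coding transcripts only, the mean log2 ratio was -1.83 for Idh3a over Idh3g and -0.89 for Idh3a over Idh3b. In expected counts without length scaling it was -1.18 for Idh3a over Idh3g and -0.50 for Idh3a over Idh3b.

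**Figure D2:**
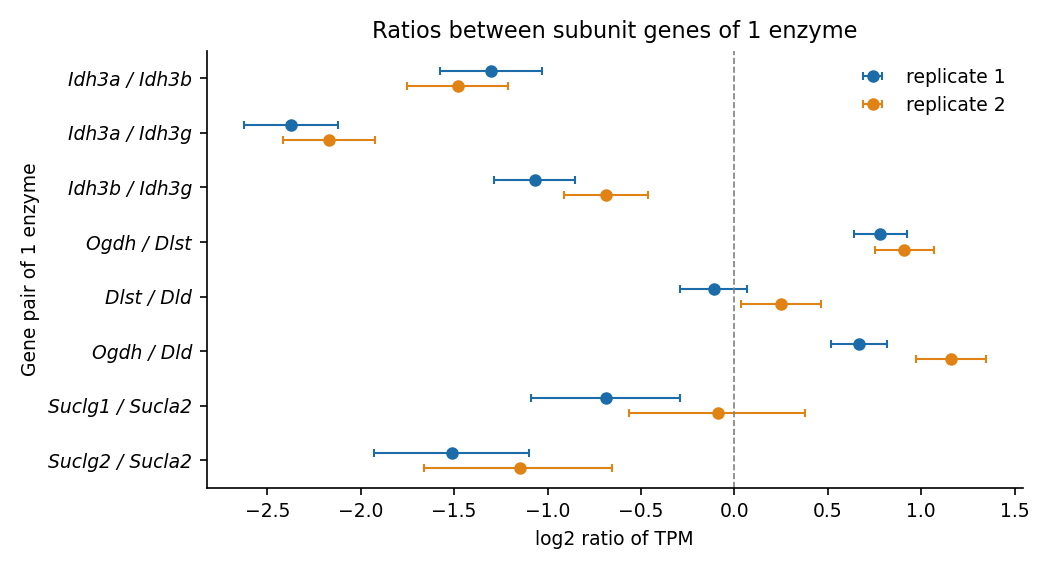
Log2 ratio of TPM (x axis) for 8 pairs of subunit genes (y axis, first gene over second), with 95% counting intervals. Replicate 1 is in blue above replicate 2 in orange. Suclg2 and Sucla2 encode alternative beta subunits, and the genes of every other pair encode subunits of the same enzyme. The 3 isocitrate dehydrogenase ratios lie left of 0 and both Ogdh ratios right of it, while the intervals for Dlst over Dld and Suclg1 over Sucla2 include 0 in 1 library each.

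Part of the Idh3g and Idh3b signal was assigned to transcripts that the annotation does not class as coding. The authors divided reads between overlapping transcripts, so these shares are estimates. The coding transcript Idh3g-201 held 77.4% of the gene's TPM in replicate 1 and 69.8% in replicate 2. The transcript Idh3g-208, annotated as a retained intron, held 14.8% and 17.5%, with 34.2 and 38.2 counts. It keeps intron 10 of the 12 introns of Idh3g-201 (chromosome X, 73779709 to 73779976, 268 bases, minus strand). The intron is shown because Idh3g-208 is the only non-coding transcript of the 9 genes at 10% or more in both libraries. Its first and last pair of bases, where splicing would cut, are in capitals.
Idh3g retained intron: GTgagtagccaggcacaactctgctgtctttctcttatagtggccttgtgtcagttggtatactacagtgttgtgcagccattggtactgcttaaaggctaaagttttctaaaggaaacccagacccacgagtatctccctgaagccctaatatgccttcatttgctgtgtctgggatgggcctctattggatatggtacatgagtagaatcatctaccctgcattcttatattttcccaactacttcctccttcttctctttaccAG
A second retained-intron transcript, Idh3g-204, which keeps intron 8, was listed at 0% in replicate 1 and 10.3% in replicate 2 (22.9 counts). All retained-intron transcripts of Idh3g together held 22.7% and 30.0% of its TPM.

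For Idh3b the split between transcripts differed most between the libraries. The coding transcript Idh3b-201 had 1.38 TPM in replicate 1 and 1.34 TPM in replicate 2. The short transcript Idh3b-204, of 452 bases and annotated as a target of nonsense-mediated decay, had 0.11 TPM in replicate 1 (4.47 counts) and 0.95 TPM in replicate 2 (30.7 counts). The authors' deposited credibility intervals for it, whose level is not stated, did not overlap, at 1.92e-07 to 0.356 TPM and 0.571 to 1.41 TPM. Idh3b-204 lacks 118 bases (chromosome 2, 130279438 to 130279555) that lie after the stop codon in Idh3b-201. Idh3b as a gene was therefore further apart between the libraries than its coding transcript was. Its deposited effective length, by which counts are divided, was 1411 bases in replicate 1 and 1049 bases in replicate 2, with 286 and 264 counts. Nop56, on the opposite strand, overlaps the end of Idh3b by a few bases, where reads cannot be told apart without strand.

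The 2-oxoglutarate dehydrogenase complex makes succinyl-CoA itself. Its E1 component, the substrate-specific dehydrogenase, is encoded by Ogdh (ENSMUSG00000020456.13, chromosome 11, 6291633 to 6356642), which had the most counts of the 9 genes, 1432 in replicate 1 and 1182 in replicate 2. Its level was 2.78 TPM in replicate 1 (interval 2.64 to 2.93) and 3.10 TPM in replicate 2 (2.93 to 3.28). Dlst, the E2 succinyltransferase gene (ENSMUSG00000004789.9, chromosome 12), had 1.62 TPM with 562 counts in replicate 1 and 1.65 TPM with 447 counts in replicate 2. Dld, the gene of the E3 dihydrolipoamide dehydrogenase that the pyruvate and branched-chain complexes also use (ENSMUSG00000020664.9, chromosome 12), had 1.75 TPM with 488 counts and 1.39 TPM with 301 counts. Ogdh stood above both partners in each library, and Dlst and Dld overlapped.

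Ogdh exceeded Dlst by a log2 ratio of TPM of 0.78 in replicate 1 (interval 0.64 to 0.92) and 0.91 in replicate 2 (0.75 to 1.07), a mean of 0.84 ± 0.09 (SD, n = 2). It exceeded Dld by 0.67 (0.52 to 0.82) and 1.16 (0.97 to 1.34). Dlst over Dld was -0.11 (-0.29 to 0.07) in replicate 1 and 0.25 (0.03 to 0.46) in replicate 2, so its direction differed between the libraries. Dld was the member of the complex with the larger shift between the libraries.

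Nearly all Ogdh signal was assigned to 1 form of the coding sequence. Full-length Ogdh transcripts use either of a pair of interchangeable exons at place 4, of 103 bases (chromosome 11, 6316978 to 6317080, in Ogdh-201 and Ogdh-204) or 91 bases (6316765 to 6316855, in Ogdh-202 and Ogdh-203). Their lengths differ by 12 bases, a multiple of 3, so the reading frame after them is kept. They are shown, on the plus strand of GRCm38, because reads over them tell the forms apart; capitals mark bases identical in a global alignment of both exons, 54 in all.
Ogdh exon of 103 bases: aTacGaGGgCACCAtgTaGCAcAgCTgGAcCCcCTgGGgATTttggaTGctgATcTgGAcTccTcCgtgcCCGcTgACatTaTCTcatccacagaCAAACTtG
Ogdh exon of 91 bases: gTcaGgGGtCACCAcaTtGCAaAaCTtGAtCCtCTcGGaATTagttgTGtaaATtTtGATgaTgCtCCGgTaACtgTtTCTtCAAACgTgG
Transcripts with the 103-base exon had 2.49 TPM in replicate 1 and 2.70 TPM in replicate 2, which is 89.6% and 87.1% of the gene's TPM. Those with the 91-base exon had 0.21 and 0.13 TPM, or 7.55% and 4.19%. Nearly all of the first came from Ogdh-201, at 89.4% and 86.1%. Ogdh-203, which adds an exon of 45 bases (6324878 to 6324922), was listed at 0 in both libraries.
Ogdh exon of 45 bases: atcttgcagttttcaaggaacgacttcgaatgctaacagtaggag
The rest of the signal lay in the retained-intron transcript Ogdh-205, at 2.98% in replicate 1 and 8.84% in replicate 2.

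Succinyl-CoA synthetase pairs an alpha subunit with a beta subunit specific for ATP or GTP, and its genes were among the 3 lowest of the 9, with Idh3a. Suclg1, for the alpha subunit (ENSMUSG00000052738.10, chromosome 6, 73248382 to 73276911), had 0.46 TPM in replicate 1 (84 counts) and 0.48 TPM in replicate 2 (61 counts). Sucla2, for the ATP-specific beta subunit (ENSMUSG00000022110.9, chromosome 14, 73525319 to 73596142), had 0.74 TPM (146 counts) and 0.51 TPM (111 counts). Its protein is known to bind the erythroid 5-aminolevulinate synthase. Suclg2, for the GTP-specific beta subunit and not among the 9, was lower still, at 0.26 TPM (75 counts) and 0.23 TPM (50 counts). Sucla2 lay above Suclg2 in both libraries without overlap.

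Suclg2 over Sucla2 gave a log2 ratio of TPM of -1.51 in replicate 1 (interval -1.93 to -1.10) and -1.15 in replicate 2 (-1.66 to -0.65). Suclg1 over Sucla2 gave -0.69 (-1.09 to -0.29) and -0.09 (-0.56 to 0.38), so the interval included 0 in replicate 2 only. Sucla2 in replicate 1 included the non-coding transcript Sucla2-202, of 538 bases at the end of the gene, with 0.26 TPM from 13.8 counts, which was listed at 0 in replicate 2. The coding transcript Sucla2-203 had 0.48 TPM in replicate 1 and 0.51 TPM in replicate 2, beside 0.46 and 0.40 TPM for the coding transcript Suclg1-201. On coding transcripts the gap between the genes was thus narrower than on whole genes in replicate 1 and wider in replicate 2. For Suclg1 the coding transcript Suclg1-201 held 100% in replicate 1 and 83.0% in replicate 2, where 4.46 counts went to a transcript annotated as a target of nonsense-mediated decay.

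**Figure D3:**
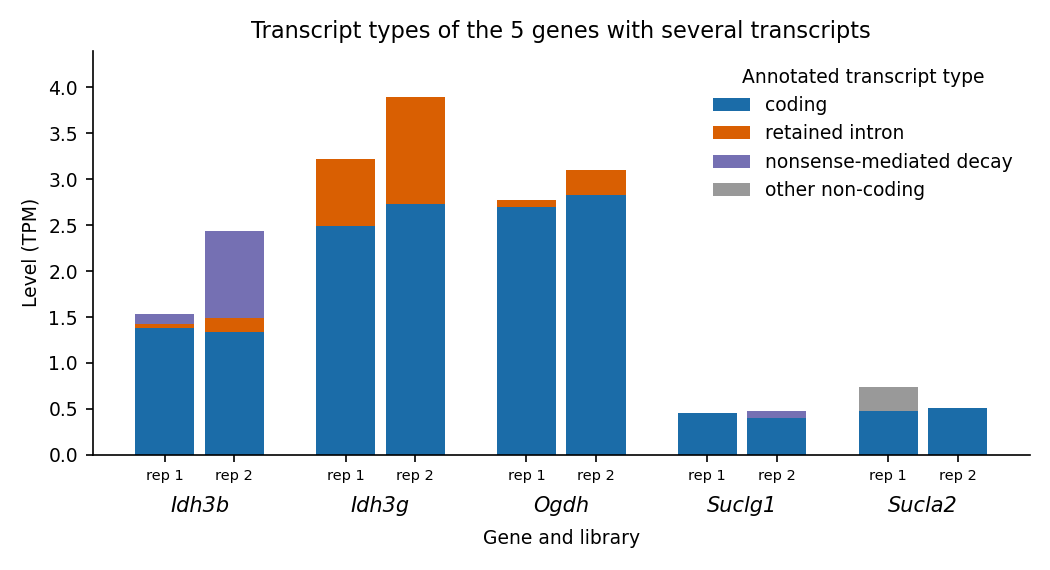
Level in TPM (y axis) of the 5 genes for which the tables list several transcripts, replicate 1 left of replicate 2 for each gene (x axis), stacked by annotated transcript type. The coding part is 1.38 and 1.34 TPM for Idh3b and 0.48 and 0.51 TPM for Sucla2, while their other types differ more.

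Over the 5 genes with several transcripts, coding transcripts held 86.0% of TPM in replicate 1 and 74.9% in replicate 2. In expected counts the shares were 95.5% and 92.0%. For Cs, Idh3a, Dlst and Dld the tables list 1 transcript each, so no split could be read.

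Between the libraries, 0 of the 9 genes were over 2-fold apart in TPM after centring on the median gene, beside 20.8% of the 9746 genes with a mean of at least 20 expected counts and TPM above 0 in both. All 9 passed that minimum. Past 1.5-fold there was 1, Sucla2, beside 38.8%. This sets 1 library against another of the same group and has no test. Centring removed a median log2 ratio of -0.14. The median absolute log2 ratio was 0.14 over the 9 genes and 0.43 over all genes tested. Genes with few counts are further apart, and no member had fewer than 61 counts.

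On the centred log2 scale of replicate 1 over replicate 2, Sucla2 stood at 0.68, Dld at 0.47, Cs at 0.13, Dlst at 0.11 and Suclg1 at 0.08. Ogdh stood at -0.02, Idh3g at -0.14, Idh3a at -0.35 and Idh3b at -0.53. Without centring Cs, Dlst and Suclg1 lay just below 0, and on counts scaled by TMM Ogdh lay just above 0, so the direction of these small differences depends on the scaling. The genes furthest apart were Sucla2 towards replicate 1 and Idh3b towards replicate 2. On expected counts scaled by TMM, which leave transcript lengths out, Sucla2 stood at 0.18 and Idh3b at -0.10, while Dld stayed at 0.49 and Idh3a at -0.35. The deposited effective length of Sucla2 was 1498 bases in replicate 1 and 2090 bases in replicate 2, and those of Dld were 2105 and 2102 bases. Among nuclear protein-coding genes averaging 200 to 500 counts, as Idh3b, Idh3g and Dld do, the median absolute log2 ratio of TPM was 0.32. For those of 50 to 200 counts, as Idh3a, Sucla2 and Suclg1 have, it was 0.54.

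**Figure D4:**
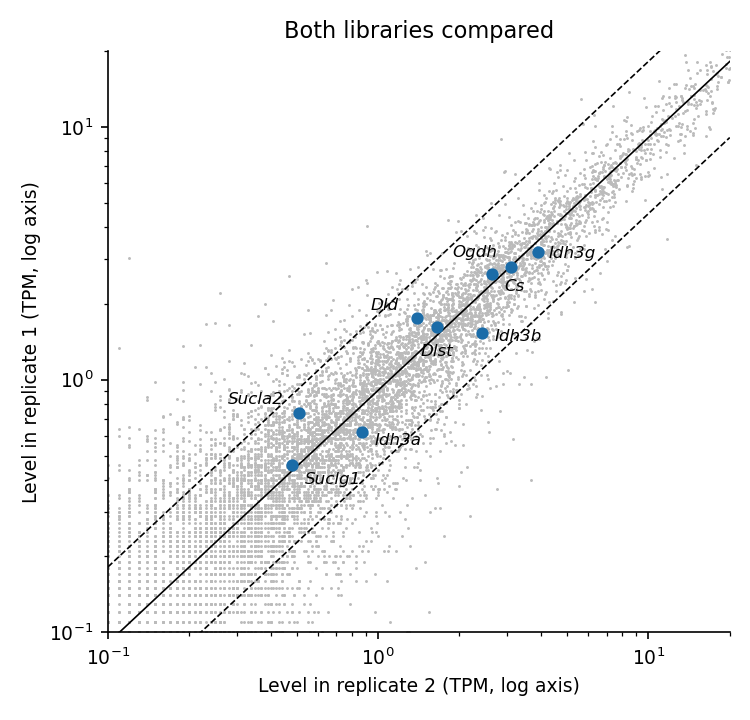
Level in replicate 1 (y axis) against replicate 2 (x axis) in TPM on log axes from 0.1 to 20, with all genes tested in grey and the 9 genes in blue. The solid line is the median ratio and the dashed lines are 2-fold from it; the 9 genes lie between the dashed lines, with Sucla2 and Idh3b furthest from the solid one among the members.

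The remaining enzymes of the cycle had a median close to that of the 9 genes. Of 8 such genes 6 reached 1 TPM in both libraries, with a median of 1.46 TPM in replicate 1 and 1.43 TPM in replicate 2. Mdh2, the malate dehydrogenase gene, was the highest at 3.66 TPM in replicate 1 and 5.16 TPM in replicate 2, above all 9 genes in each library. Sdha, for the flavoprotein of succinate dehydrogenase, followed at 2.07 and 2.28 TPM. Suclg2 was the lowest. Of the 14 genes for pyruvate entry 4 reached 1 TPM in both libraries, led by the pyruvate carrier genes Mpc2 at 2.84 and 2.53 TPM and Mpc1 at 1.49 and 1.77 TPM. The other two were Pdk3, for a pyruvate dehydrogenase kinase, and Pdhb, for a subunit of the dehydrogenase. Pdk4, a kinase that switches pyruvate dehydrogenase off, had 0.02 TPM in replicate 1 and was listed at 0 in replicate 2.

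Dld and Dlst have other partner enzymes, and the genes of most of those were low. Of 8 genes listed here, Mrps36 included, 1 reached 1 TPM in both libraries, beside 12.6% of nuclear protein-coding genes. Their median was 0.03 TPM in replicate 1 and 0.04 TPM in replicate 2. The gene that reached it was Mrps36, at 2.38 and 2.08 TPM. Its product (also called KGD4) holds E3 in the 2-oxoglutarate dehydrogenase complex, so it is not among the other partner enzymes. The branched-chain dehydrogenase genes Bckdha, Bckdhb and Dbt had 0.07, 0.01 and 0.04 TPM in replicate 1 (16, 2 and 16 counts) and 0.16, 0.14 and 0.02 TPM in replicate 2 (27, 17 and 8 counts). Of the glycine cleavage genes, Gldc had 0 counts in both libraries, Amt had 0 counts in replicate 1 and 1 in replicate 2, and Gcsh had 0.06 TPM in each. Dhtkd1, for an E1 that also works with Dlst, had 0.02 TPM in replicate 1 (16 counts) and 0 counts in replicate 2. Dld, at 1.75 and 1.39 TPM, stood above all of these genes but Mrps36. Dlat and Pdhx, of the pyruvate dehydrogenase complex that also uses Dld, had 0.19 and 0.36 TPM in replicate 1 and 0.34 and 0.19 TPM in replicate 2. Pdha1 and Pdhb, of the same complex, had 0.50 and 1.29 TPM in replicate 1 and 0.80 and 1.49 TPM in replicate 2. Pdhb thus lay below Dld in replicate 1 and above it in replicate 2.

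Other routes to the substrate or product of the complex varied. Of 10 genes for 2-oxoglutarate supply 3 reached 1 TPM in both libraries. Among them were Slc1a5, the glutamine transporter gene, at 14.5 TPM in replicate 1 and 16.5 TPM in replicate 2, and the glutamate dehydrogenase gene Glud1 at 1.15 and 1.12 TPM. Gpt2, for a mitochondrial alanine transaminase, had 0 counts in both. The NADP-linked isocitrate dehydrogenase genes Idh1 and Idh2 had 0.52 and 0.28 TPM in replicate 1 and 0.69 and 1.26 TPM in replicate 2. Both lay below Idh3g and Idh3b in each library. Set against Idh3a, at 0.62 and 0.87 TPM, Idh1 was lower in each library, while Idh2 was lower in replicate 1 and higher in replicate 2. For Idh2 the centred log2 ratio of replicate 1 over replicate 2 was -2.03. The propionate route to succinyl-CoA, with Pcca, Pccb, Mcee and Mut, had 0 of 4 genes at 1 TPM in both libraries and summed to 0.63 TPM in replicate 1 and 1.23 TPM in replicate 2. The summed level of the 9 genes was 15.3 and 17.0 TPM. Of 4 genes for citrate export and its use in the cytosol, 0 reached 1 TPM in both libraries; Mdh1 had 1.81 TPM in replicate 1 and 0.64 TPM in replicate 2, and Acly, for ATP citrate lyase, 0.41 and 1.06 TPM. The paralogs Ogdhl, Csl and Pdha2 had at most 5 counts in a library.

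**Figure D5:**
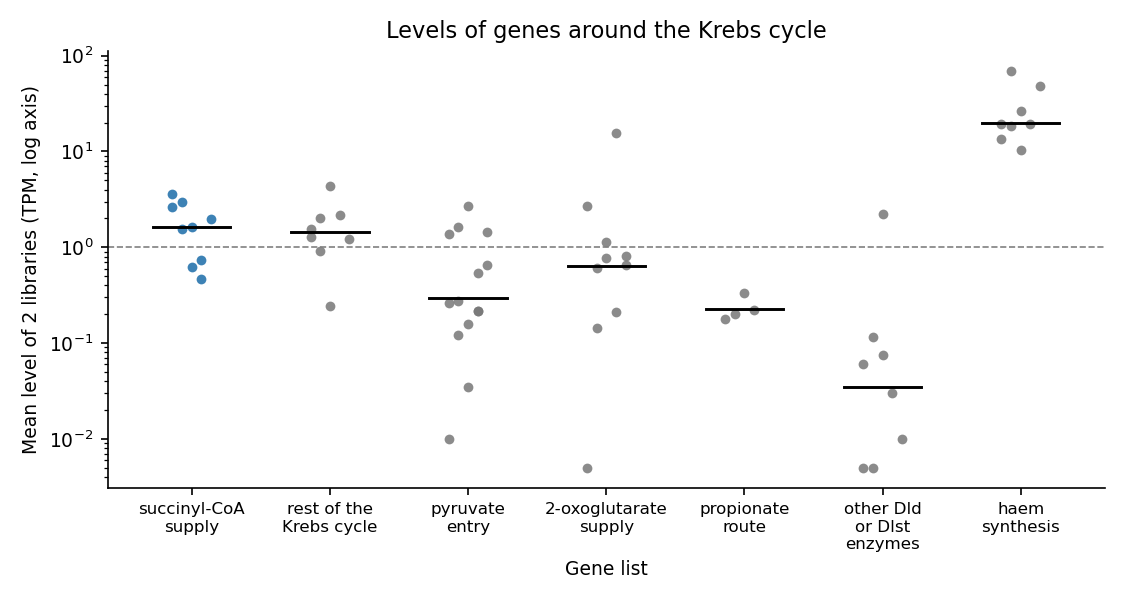
Mean level of both libraries in TPM (y axis, log scale) for each gene (point) of 7 lists (x axis), with the mean of the library medians as a black line and 1 TPM as a dashed line; genes below 0.005 TPM are drawn at 0.005. The 9 genes, in blue, and the rest of the cycle have medians of 1.64 and 1.44 TPM, and haem synthesis one of 19.9 TPM.

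Haem synthesis genes stood well above the genes that supply its first substrate. Each of the 8 passed 1 TPM, and their medians were 18.1 TPM in replicate 1 and 21.8 TPM in replicate 2. The lowest of them, Uros, had 9.16 and 11.35 TPM, above each of the 9. Alas2, the erythroid user of succinyl-CoA, had 61.95 TPM in replicate 1 and 77.8 TPM in replicate 2. That is 4.04-fold and 4.58-fold the summed level of the 9 genes. The log2 ratio of TPM of Alas2 over a single member ran, as means of both libraries, from 4.29 ± 0.03 (SD, n = 2) for Idh3g to 7.21 ± 0.19 for Suclg1. Over Ogdh it was 4.56 ± 0.12 and over Sucla2 6.82 ± 0.61. The other users stood far below Alas2. The housekeeping gene Alas1 had 0.99 TPM in replicate 1 and 1.06 TPM in replicate 2, above Idh3a, Sucla2 and Suclg1 in each library. The CoA transferase gene Oxct1 had 0.32 and 0.35 TPM. These are RNA levels and say nothing of enzyme amount or flux.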

How the data were processed

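Gene and transcript tables of both libraries were used. Each library was quantified from reads aligned to transcripts of GENCODE M4 (mm10), per the labels' file descriptions. The strand setting, the aligner and the quantification tool were not given in what was used here. Expected counts, deposited by the authors, are estimated numbers of reads for a gene or transcript, per the file headers. The deposited TPM and FPKM are scaled by length and library, and the deposited isoform percent is a transcript's share of its gene's TPM, per the file headers. The deposited credibility bounds and model standard deviations were treated as a score, as their level is not stated.

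Names, types and positions came from GENCODE M21 (GRCm38), by which 42462 of 43346 Ensembl entries were matched. The 9 genes, the lists and the tests were chosen with earlier results of these data known. Named by rule were all 9 genes, members of lists of up to 8 genes, the 2 highest and the lowest of longer lists, the main transcript of each gene and others at 10% or more in both libraries. Pdk3, Pdha1, Pdhb, Dlat, Pdhx, Glud1, Idh1, Idh2 and the remaining named transcripts were chosen after their values were seen. Some genes of the lists are not reported here by name. With 1 group there is no test between conditions and, with 2 libraries, no search for genes of like pattern. Values are given per library or as mean ± SD, with exact Poisson or Clopper-Pearson intervals at 95%. Distance between libraries is a difference of log2(TPM) without pseudocount. The libraries differed beyond counting error (chi-square per degree of freedom 13.8). Expected counts were rounded for edgeR's TMM and DESeq2's size factors. The 2-fold call and the intervals were tried on simulated Poisson counts, for the call with the same gene lengths in both libraries. Such counts hold counting error only. The spread beyond it and the differing effective lengths of the real libraries were therefore not covered. Exons were aligned globally with match 1, mismatch -1, gap opening -3 and extension -1; sequences came from GENCODE M21 transcripts. Software was edgeR 4.0.16 and DESeq2 1.42.0 under R 4.3.3, with scipy 1.17.1, numpy 2.4.6 and pandas 2.3.3 under Python 3.11.15.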

Additional observations from a re-analysis of the deposited data

How the results depend on the processing

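Of 97 values recomputed under other settings, 72 stayed within 1 SD of the libraries or, for counts of genes, within 1.5 times the count given, and 25 moved. Among the 72 are the values that leave out a library. Except for counts of genes, these lie within 1 SD by construction when there are 2 libraries, so the 72 overstate stability. The mean log2 ratio of Dlst over Dld changed sign without replicate 2, at -0.11. At 1 rescaled TPM 9 of the 9 genes passed, at 0.5 TPM 8 and at 5 TPM 0. The median was 65.5 on the rescaled TPM and 1.52 in FPKM. The share of nuclear protein-coding TPM was 0.0901% without globin genes and 0.0940% in expected counts. Past 1.5-fold, 1 gene was apart. With 1 added to TPM, the mean log2 ratio was -0.76 for Idh3a over Idh3b, -1.39 for Idh3a over Idh3g, 0.58 for Ogdh over Dlst and -0.38 for Suclg2 over Sucla2, as that addition shrinks ratios of low genes. In expected counts it was -0.50 for Idh3a over Idh3b, -1.18 for Idh3a over Idh3g, 1.38 for Ogdh over Dlst, 0.39 for Dlst over Dld, 1.76 for Ogdh over Dld, -0.83 for Suclg1 over Sucla2 and -1.06 for Suclg2 over Sucla2. With coding transcripts only it was -0.89 for Idh3a over Idh3b and -1.83 for Idh3a over Idh3g. The whole Suclg2 gene over the coding transcripts of Sucla2 gave -1.02. On posterior mean TPM the ratio of Suclg2 over Sucla2 was -1.59. Beyond what the settings themselves do to lengths, scale and transcripts counted, the cause was not tested. The coding share of the genes with several transcripts was 93.8% in expected counts. Leaving out a library returns the value of the other one, so it is no check of stability; Suclg1 over Sucla2 was -0.09 without replicate 1 and -0.69 without replicate 2. Genes over 2-fold apart between the libraries numbered 2031, against 62 with 1 added to TPM, 1014 with 0.1 added and 3256 without a count minimum; the 9 genes had 0 in each. No paired analysis was possible because there is 1 group. The counts of Suclg1, Sucla2, Idh3a and the short transcripts limit what can be told apart.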
